A study of Mus musculus with 6 samples.

Results

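The peptide loading genes of MHC class I antigen presentation and their regulator Nlrc5, 9 genes in all, are described in SL4 mouse colorectal cancer (CRC) cells with and without SEMA6A overexpression. They were chosen by name and by role: the transporter subunits Tap1 and Tap2, the chaperones and editors Tapbp, Tapbpl, Calr, Canx and Pdia3, the trimming enzyme Erap1 and the class I transactivator Nlrc5. All 9 are among the 53700 genes listed in the deposited table, each under a single identifier, and all 9 are among the 12510 genes tested.

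MHC class I molecules show peptides from inside the cell to CD8+ T cells. The peptides are cut in the cytosol by the proteasome, pumped into the endoplasmic reticulum (ER) by the TAP transporter and shortened there by ERAP1. A loading complex of tapasin, calreticulin and ERp57 holds an empty class I molecule beside TAP until a peptide fits. NLRC5 is a coactivator recruited to the promoters of class I genes and of several genes of this pathway, and many of these genes are known to be induced by interferon.

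SL4 is a mouse CRC line that expresses luciferase. The pLV-SEMA6A group holds 3 libraries of SL4 cells carrying a lentivirus for stable SEMA6A overexpression, and the pLV-Control group holds 3 libraries that the labels call SL4 cells without overexpression (the controls). The authors name the RNA-seq controls SL4 in their methods and pLV-Control in their results, and the labels do not say whether these cells carried an empty vector. No source used here describes separate transductions, so an effect of SEMA6A and a difference between 2 cell lines cannot be told apart. Nothing states that the libraries of a group came from separate cultures, so p-values measure only the spread between these libraries, which may be technical.

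Expression was compared as TPM, which corrects a level for transcript length and for library size, so levels can be compared between genes but the number of reads behind a value is unknown. In pLV-Control, Sema6a was listed at 0 TPM in all 3 libraries, and in pLV-SEMA6A it reached 98.68, 118.42 and 112.22 TPM. The defining epithelial markers were absent or nearly so. Epcam and Cdx2 were listed at 0 in all 6 libraries, 8 of the 9 epithelial markers were under 1 TPM in every library, and Lgals4 alone reached 2.33 TPM. All 9 leukocyte markers and all 5 endothelial markers were under 1 TPM in every library. Summed over each list, leukocyte markers lay between 0.22 and 0.56 TPM in the controls against between 0.1 and 0.72 TPM in pLV-SEMA6A, and the 7 fibroblast markers reached 16.6 to 17.7 TPM and at most 15.4 TPM. The epithelial markers summed to 1.91 to 2.82 TPM and to 0.53 to 1.33 TPM. In pLV-SEMA6A replicate 2 the mitochondrial gene mt-Co3 had 0.33 TPM, against 141 to 450 TPM elsewhere, and each call on the 9 genes was the same without that library.

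Differences are on the log2(TPM + 1) scale, which understates changes of low genes, and were tested with limma over all genes tested with Benjamini-Hochberg adjustment. A gene counted as a DEG when its adjusted p was under 0.05 and its log2 fold change exceeded 0.5 in size, which held for 15.9% of all genes tested. Of the 9 genes, 5 were lower DEGs, where 10.8% of all genes tested were, and 1 was a higher DEG, where 5.12% of all genes were. The lower DEGs were Tap1, Nlrc5, Tapbp, Erap1 and Tap2, in the order of their log2 fold changes, and the higher DEG was Pdia3. Calr was higher with an adjusted p under 0.05 and a difference below the minimum, which made 7 of the 9 genes pass on the adjusted p alone, as did 47.6% of all genes. Tapbpl and Canx did not pass. In bulk libraries, less RNA in each cell and fewer cells with that RNA cannot be told apart for any of these genes. The median log2 fold change was −0.57 over the 9 genes and −0.06 over all genes tested. Libraries of both groups did not overlap for 8 of the 9 genes (6 lower and 2 higher), and for 58.5% of all genes tested (34.7% lower and 23.8% higher). Over all genes, 1347 DEGs were lower and 640 higher, and after centring each library on its median 961 were lower and 1002 higher. Under that centring Tap2 missed the minimum (log2 fold change −0.48), Calr passed it (0.55), and the other calls on the 9 genes were the same. Among the cell type markers, Lgals4 was a lower DEG, as were Pdgfra and Pdgfrb of the fibroblast list, while Col1a1 was a higher DEG, and the part of these markers in the results on the 9 genes was not tested.

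**Figure D1:**
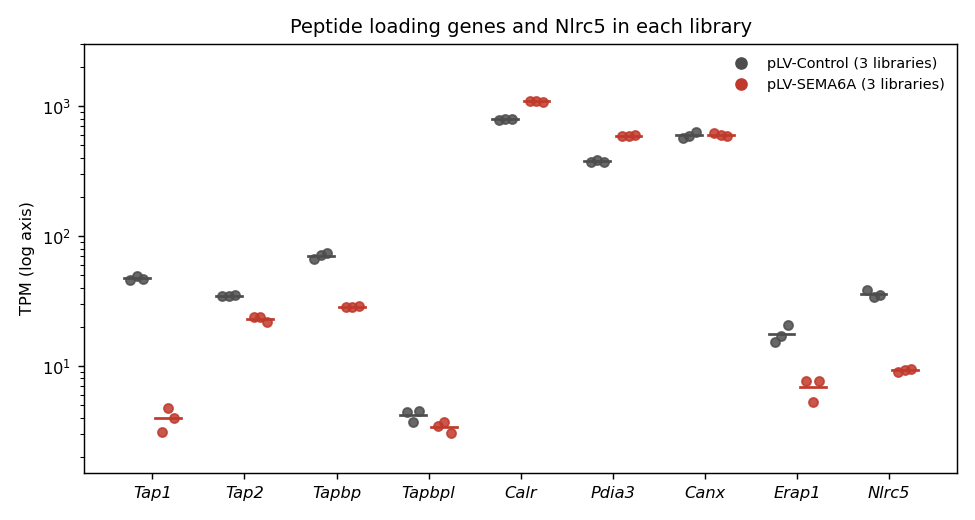
TPM of the 9 genes in each library on a log axis, with pLV-Control libraries in grey, pLV-SEMA6A libraries in red and a bar at each group mean. Tap1 fell to the level of Tapbpl, while Calr, Pdia3 and Canx stayed at 371.96 TPM or more in every library.

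The TAP transporter is a dimer of TAP1 and TAP2, and both subunits are needed for transport. Tap1 (ENSMUSG00000037321, chromosome 17) was at 45.96, 48.99 and 46.23 TPM in the controls against 3.11, 4.76 and 3.96 TPM in pLV-SEMA6A. The highest pLV-SEMA6A library lay far below the lowest pLV-Control library. Its mean fell 11.9-fold, a change of −3.29 ± 0.12 (SE) on the log2 scale (limma adjusted p = 7.8e-06), and it ranked 12 among the falls of all genes tested. Tap2 (ENSMUSG00000024339, chromosome 17) was at 34.30, 34.62 and 35.01 TPM in the controls against 23.75, 23.65 and 21.75 TPM in pLV-SEMA6A. The groups did not overlap here either, but the mean fell 1.5-fold, with a log2 fold change of −0.57 (95% interval −0.68 to −0.46, limma adjusted p = 1.8e-04). The fall of Tap2 ranked 1332.

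Within a library, the ratio of Tap1 to Tap2 TPM was 1.34, 1.42 and 1.32 in pLV-Control and 0.131, 0.201 and 0.182 in pLV-SEMA6A. Tap1 was the more abundant transcript in every pLV-Control library and Tap2 in every pLV-SEMA6A library. The log2 ratio was lower by 2.73, and a two-sided exact permutation test of 3 libraries against 3 gave p = 0.1, the smallest that it allows (adjusted p = 0.1 over the 3 ratios computed). Part of the transcript sequence is shared with overlapping genes, and the sources used here do not say whether reads were assigned by strand. Of the 31-base stretches of Tap2, 14.3% occur in other genes, mainly in the opposite-strand RNA Gm15821, which was between 0.44 and 1.18 TPM. For Tap1 the share was 4.09%, mainly with Psmb9.

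Tap1 lies head to head with Psmb9, an interferon-induced subunit of the immunoproteasome, and the promoter of the pair is shown because both genes fell. RefSeq holds promoter windows for 6 of the 9 genes on GRCm38.p6, namely Tap1, Tapbp, Erap1, Calr, Canx and Pdia3. The submitters' processing notes name mm39, so these positions are on another build than the one given for the data. The RefSeq starts of Tap1 and Psmb9 lie 226 bases apart, and their windows, read on opposite strands, share 275 bases. The stretch below is chr17:34187306-34187575 on the plus strand, from 250 bases before the start of Tap1 to 20 after it, with a CCAAT and a TGACG in capitals.
Tap1 and Psmb9 promoter: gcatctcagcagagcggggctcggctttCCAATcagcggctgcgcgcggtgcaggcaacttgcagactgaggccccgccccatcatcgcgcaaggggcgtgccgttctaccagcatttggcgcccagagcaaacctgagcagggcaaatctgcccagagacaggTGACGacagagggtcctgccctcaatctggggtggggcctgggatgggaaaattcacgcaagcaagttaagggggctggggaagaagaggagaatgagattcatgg
Psmb9 was at 14.43, 11.91 and 11.91 TPM in the controls against 0.66, 0.38 and 0.37 TPM in pLV-SEMA6A. Its log2 fold change was −3.23 ± 0.13 (SE, limma adjusted p = 1.1e-05), and its rank among the falls was 13, next to that of Tap1. That scale understates changes of low genes. By mean TPM, Psmb9 fell 27.1-fold and Tap1 11.9-fold. Tap1 and Psmb9 overlap on opposite strands, so the values of the pair may share reads.

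Nlrc5 (ENSMUSG00000074151, chromosome 8) was at 38.13, 34.00 and 35.21 TPM in the controls against 8.99, 9.30 and 9.43 TPM in pLV-SEMA6A. Every pLV-SEMA6A library was below every pLV-Control library, and the pLV-SEMA6A libraries lay close together. The mean fell 3.87-fold, a change of −1.84 ± 0.06 (SE) on the log2 scale (limma adjusted p = 3.7e-06), which ranked 104 among the falls. In pLV-Control its level could not be told from that of Tap2, since their libraries overlapped. In pLV-SEMA6A it was below Tap2 in every library.

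NLRC5 does not bind DNA alone but joins a complex of RFX, CREB/ATF and NF-Y proteins on class I promoters. All 8 listed genes of this complex were tested, of which 1 was a lower DEG, 2 were higher DEGs and 3 did not pass. Over all genes tested, 10.8% were lower DEGs and 5.12% higher DEGs. Rfx5, a DNA-binding subunit of RFX, was at 17.78, 17.59 and 18.50 TPM in the controls against 8.24, 9.08 and 8.11 TPM in pLV-SEMA6A (log2 fold change −1.0, limma adjusted p = 5.3e-05). Nfyc, a subunit of NF-Y, was at 19.55, 16.90 and 22.39 TPM in the controls against 35.83, 38.34 and 43.87 TPM in pLV-SEMA6A (log2 fold change 0.97, limma adjusted p = 7.9e-04). Rfxap, another RFX subunit, also rose, with a log2 fold change of 0.56 (limma adjusted p = 0.0358). The genes of this complex had no common direction. Ciita, the class II counterpart of Nlrc5, did not exceed 0.49 TPM in any library.

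Tapasin, the product of Tapbp, bridges TAP and class I molecules and edits which peptides are kept. Tapbp (ENSMUSG00000024308, chromosome 17) was at 66.62, 71.01 and 73.80 TPM in the controls against 28.54, 28.26 and 28.82 TPM in pLV-SEMA6A. The groups were well apart, and the mean fell 2.47-fold, a change of −1.27 ± 0.05 (SE) on the log2 scale (limma adjusted p = 6.5e-06). Other genes contain 26.9% of its 31-base stretches, mainly Gm19412 on the opposite strand, which reached at most 2.04 TPM. Zbtb22 overlaps Tapbp exons on the same strand. It was at 10.64 to 14.35 TPM in the controls and 11.77 to 14.52 TPM in pLV-SEMA6A, so the level of Tapbp is uncertain to the extent that reads are shared. Tapbpl encodes TAPBPR, a tapasin relative that edits peptides outside the loading complex. Tapbpl (ENSMUSG00000038213, chromosome 6) had the lowest mean of the 9 genes in both groups, with 4.41, 3.71 and 4.51 TPM in the controls against 3.46, 3.68 and 3.02 TPM in pLV-SEMA6A. Its log2 fold change of −0.25 (95% interval −0.52 to 0.02, limma adjusted p = 0.114) did not pass, and the interval reaches past the minimum of 0.5. In pLV-SEMA6A, its libraries overlapped those of Tap1.

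The ratio of Tapbp to Tapbpl TPM was 15.1, 19.1 and 16.4 in pLV-Control and 8.25, 7.68 and 9.54 in pLV-SEMA6A. The groups of ratios did not overlap, and tapasin remained the more abundant transcript of the pair in all 6 libraries. The log2 ratio was lower by 1.03 (two-sided exact permutation p = 0.1, adjusted p = 0.1).

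**Figure D2:**
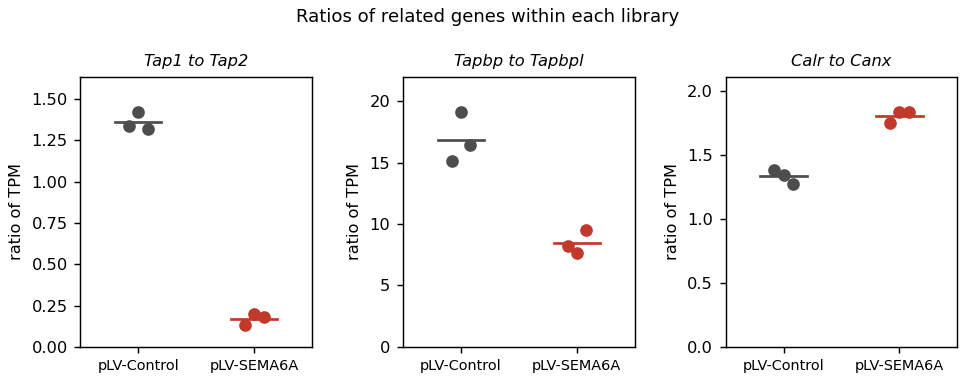
Ratio of TPM within each library for the subunits Tap1 and Tap2, the editors Tapbp and Tapbpl, and the lectin chaperones Calr and Canx, with a bar at each group mean. No ratio overlaps between the groups, and Tap1 to Tap2 drops from 1.32 or more to 0.201 or less.

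ERAP1 trims the N-terminal end of peptides to the length that class I molecules hold. Erap1 (ENSMUSG00000021583, chromosome 13) was at 15.37, 16.88 and 20.72 TPM in the controls against 7.66, 5.23 and 7.67 TPM in pLV-SEMA6A. The groups did not overlap, although its standard error was the largest of the 9 genes. The mean fell 2.58-fold, a change of −1.25 ± 0.16 (SE) on the log2 scale (limma adjusted p = 0.0012), and the log2 fold change stayed between −1.34 and −1.10 when each library was left out. The calpain inhibitor gene Cast, on the opposite strand, contains 11.0% of its 31-base stretches and was far higher than Erap1, at 98.71 to 104.5 TPM in the controls against 92.41 to 94.47 TPM in pLV-SEMA6A, so the level of Erap1 is uncertain to that extent.

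The Erap1 promoter was the only one of the 6 windows with the interferon response core, GAAA repeated after 2 bases, which 3.44% of all 32851 RefSeq windows of that length hold. The match, in capitals, spans the start and reads on the minus strand of chr13:74639603-74639872, a stretch given on the plus strand.
Erap1 promoter: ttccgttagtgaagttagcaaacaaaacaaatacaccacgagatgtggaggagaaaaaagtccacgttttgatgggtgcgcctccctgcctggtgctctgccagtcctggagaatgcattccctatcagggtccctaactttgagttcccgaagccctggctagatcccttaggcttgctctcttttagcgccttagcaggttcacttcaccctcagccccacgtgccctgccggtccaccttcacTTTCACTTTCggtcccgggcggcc
The STAT motif TTCNNNGAA, in 8.30% of all windows, had no match in the 6. CCAAT, in 37.4% of all windows, had a match in Tap1, Tapbp, Calr, Canx and Pdia3, and TGACG, in 20.8%, in Tap1, Canx and Pdia3. Each motif was searched on both strands, and a match is a run of letters, not a binding site.

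The other loading chaperones serve glycoproteins in general. Calreticulin and calnexin are lectins that hold newly made glycoproteins, and ERp57, the product of Pdia3, is a thiol oxidoreductase that works with both and is tied to tapasin in the loading complex. These 3 genes were the highest of the 9 and did not fall. Pdia3 (ENSMUSG00000027248, chromosome 2) was at 371.96, 380.87 and 372.05 TPM in the controls against 589.79, 583.92 and 601.10 TPM in pLV-SEMA6A. It was higher in every pLV-SEMA6A library, with a mean 1.58-fold higher and a log2 fold change of 0.66 ± 0.02 (SE, limma adjusted p = 4.5e-06). Calr (ENSMUSG00000003814, chromosome 8) was at 776.68, 794.50 and 796.15 TPM in the controls against 1085.92, 1091.56 and 1079.57 TPM in pLV-SEMA6A. These groups did not overlap either, and the log2 fold change was 0.46 (95% interval 0.42 to 0.50, limma adjusted p = 9.1e-06). Canx (ENSMUSG00000020368, chromosome 11) was at 564.11, 591.30 and 627.69 TPM in the controls against 620.17, 597.21 and 591.14 TPM in pLV-SEMA6A. Its groups overlapped, and the log2 fold change of 0.02 (95% interval −0.08 to 0.12, limma adjusted p = 0.699) lay inside the minimum on both sides.

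Calreticulin is the soluble lectin of the pair and calnexin the membrane-bound one. The ratio of Calr to Canx TPM was 1.38, 1.34 and 1.27 in pLV-Control and 1.75, 1.83 and 1.83 in pLV-SEMA6A. All pLV-SEMA6A ratios were above all pLV-Control ratios, and the log2 ratio was higher by 0.44 (two-sided exact permutation p = 0.1, adjusted p = 0.1). In pLV-SEMA6A, Pdia3 reached the level of Canx, with overlapping libraries.

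The promoters of Calr and Canx are shown because both hold the ER stress response element, CCAAT and CCACG set 9 bases apart, a motif present in 0.119% of all windows and searched only after the values were known. It includes a CCAAT match, and the Pdia3 window did not hold it. The stretches are chr8:84846912-84847181 and chr11:50325654-50325923, both given on the minus strand with the match in capitals, which in Calr runs in the opposite direction.
Calr promoter: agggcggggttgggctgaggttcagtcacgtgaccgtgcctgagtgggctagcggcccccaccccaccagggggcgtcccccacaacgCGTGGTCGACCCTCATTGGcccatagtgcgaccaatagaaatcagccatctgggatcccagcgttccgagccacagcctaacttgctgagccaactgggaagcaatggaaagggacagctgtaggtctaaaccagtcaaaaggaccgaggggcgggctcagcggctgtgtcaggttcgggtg
Canx promoter: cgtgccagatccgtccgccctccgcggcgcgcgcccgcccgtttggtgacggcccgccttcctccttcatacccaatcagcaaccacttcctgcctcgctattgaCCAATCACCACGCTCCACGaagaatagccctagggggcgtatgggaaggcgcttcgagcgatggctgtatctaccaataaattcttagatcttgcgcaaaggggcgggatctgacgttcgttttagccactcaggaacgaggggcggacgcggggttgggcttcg

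A wider list of ER folding and glycoprotein quality control genes gave no common direction. Of 18 genes, 17 were tested. Of these, 2 were higher DEGs and none was a lower DEG, where 5.12% and 10.8% of all genes tested were. At an adjusted p under 0.05 alone 8 were lower and 5 higher, where 28.2% of all genes tested were lower and 19.5% higher. Pdia4 and Dnajb11 were the DEGs, with log2 fold changes of 0.59 and 0.60. Hspa5, the major ER Hsp70 chaperone, was at 1909.48, 1891.69 and 1913.14 TPM in the controls against 1351.36, 1380.51 and 1342.16 TPM in pLV-SEMA6A. It was lower in every pLV-SEMA6A library, with a log2 fold change of −0.49 (limma adjusted p = 6.0e-06), just inside the minimum. The glucosidase II subunits Ganab and Prkcsh, which prepare glycans for calnexin and calreticulin, had log2 fold changes of −0.23 and −0.34, while Uggt1, which returns misfolded glycoproteins to these lectins, had one of 0.24. The median of the list was −0.01.

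**Figure D3:**
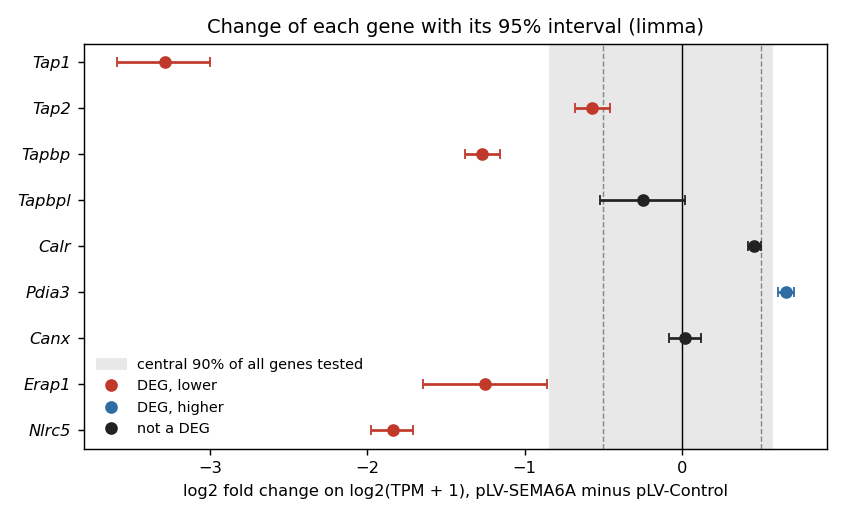
Log2 fold change of each gene with its 95% interval from limma, the minimum of 0.5 as dashed lines and the central 90% of all genes tested, from −0.84 to 0.57, as a grey band. Tap1, Nlrc5, Tapbp and Erap1 lie below the band and Pdia3 above it.

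The class I molecules that the complex loads were lower as well. All 7 tested of 9 class I genes were lower DEGs, where 10.8% of all genes tested were. Their median was −2.25 on the log2 scale, and B2m, the light chain, had −2.25, H2-K1 −2.61 and H2-D1 −2.65. The class I heavy chains are close paralogs, so reads may be split between them. By log2 fold change, Tap1 fell further than B2m, H2-K1 and H2-D1, while Nlrc5, Tapbp, Erap1 and Tap2 fell less. This did not hold for every class I gene. H2-Q4 (−3.74) fell further than Tap1, and H2-M3 (−1.35) fell less than Nlrc5. H2-T22 (−2.22) and H2-T23 (−2.21) lay between Tap1 and Nlrc5.

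Genes that supply the peptides did not share a direction. All 5 genes of the immunoproteasome and its PA28 activator were lower DEGs, where 10.8% of all genes tested were. Their median log2 fold change was −1.38, but Psmb10 and Psme1 passed the minimum only narrowly, with −0.51 and −0.52. Psmb8, a catalytic subunit whose gene lies between Tap1 and Tap2, was at 7.81, 7.31 and 9.28 TPM in the controls against 1.00, 0.32 and 0.42 TPM in pLV-SEMA6A (log2 fold change −2.55, limma adjusted p = 1.1e-04). The log2 fold changes of its neighbours, −3.29 for Tap1 and −0.57 for Tap2, lay on either side of that value. That scale understates changes of low genes, and by mean TPM Psmb8 did not lie between them. In pLV-SEMA6A, Psmb8 was at 7.13% of its pLV-Control mean, against 8.38% for Tap1 and 66.5% for Tap2. The constitutive catalytic subunits that Psmb8, Psmb9 and Psmb10 replace included no DEG among 3, where 15.9% of all genes tested were DEGs. Their log2 fold changes were 0.39 for Psmb5 and 0.32 for Psmb6, both with an adjusted p under 0.05, and 0.06 for Psmb7. Of 7 cytosolic and endosomal peptidases that shape or destroy class I peptides, 1 was a DEG, close to the 15.9% of all genes tested. Thop1, which degrades such peptides in the cytosol, was at 29.83, 30.25 and 29.61 TPM in the controls against 51.89, 52.99 and 53.62 TPM in pLV-SEMA6A (log2 fold change 0.80, limma adjusted p = 1.2e-05). Lnpep, the endosomal relative of Erap1, had a log2 fold change of −0.18, under the minimum.

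Interferon response regulators, which act upstream of this pathway, included 5 lower DEGs among 10 tested, where 10.8% of all genes tested were. The list held no higher DEG, where 5.12% of all genes tested were. Its median log2 fold change was −0.52, against −0.06 over all genes tested. Irf1, a direct activator of Tap1 in the textbook pathway, had a log2 fold change of −1.13 (limma adjusted p = 1.7e-04). It was among the 5 lower DEGs but not the largest fall of the list, and its part in the fall of Tap1 was not tested. The interferon gamma receptor genes Ifngr1 and Ifngr2 had −0.23 and −0.18. Of the class II genes, 3 of 7 were tested and 2 were lower DEGs, Cd74 (−0.67) and H2-DMb1 (−0.91), where 10.8% of all genes tested were. H2-Aa, H2-Ab1 and H2-Eb1 were listed at 0 in all 6 libraries.

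**Figure D4:**
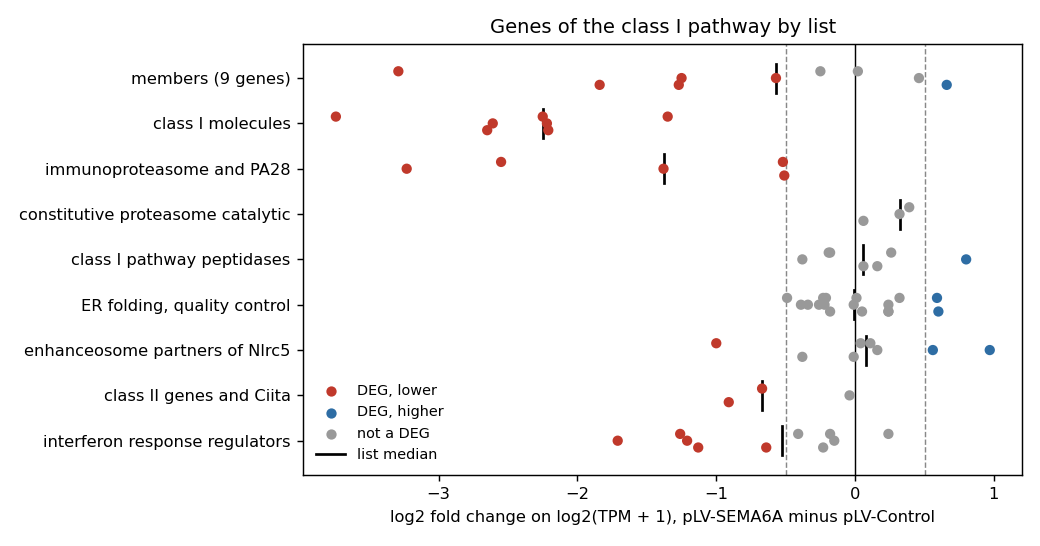
Log2 fold change of every tested gene of the 9 genes and of 8 pathway lists, with lower DEGs in red, higher DEGs in blue, other genes in grey, a black line at each list median and dashed lines at the minimum of 0.5. Class I molecules and the immunoproteasome with PA28 lie wholly below −0.5, with Psmb10 and Psme1 just past it, and the ER folding list is centred near 0.

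The genes with patterns most like those of Tap1 and Nlrc5 were found by the distance between the 6 log2(TPM + 1) values of each gene, after subtracting the mean of its pLV-Control libraries, and the 9 genes themselves were left out of the search. Among 8176 genes averaging 10 TPM or more, the nearest to Tap1 was Phf11d (distance 0.336), at 66.10, 72.22 and 67.74 TPM in the controls against 6.39, 8.04 and 5.94 TPM in pLV-SEMA6A. Ifi44, Irf7, Ifi207 and Ccl5 followed, at distances from 0.519 to 0.646. Psmb9 averaged less than 10 TPM, so it was not in the search for Tap1. Among 12501 genes averaging 1 TPM or more, the nearest to Nlrc5 was Isg15 (distance 0.166), a ubiquitin-like modifier, with a log2 fold change of −1.86. Apol9b, Lgals9, Apol9a and Ifi204 followed, at distances from 0.169 to 0.241, and Apol9a and Apol9b are close paralogs whose reads may be split.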

How the data were processed

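RNA from 3 pLV-Control and 3 pLV-SEMA6A libraries of SL4 cells was poly-A selected, fragmented, reverse transcribed with random primers and read on an Illumina instrument. TPM was deposited by the authors per library, with 2 decimals, and the mean TPM of each group, which was not used. The submitters' processing notes name Bowtie2, HISAT and RSEM and the build mm39, with no version or role. The unit was read from the values, whose totals lie between 977400 and 986444. DESeq2, which the authors used for the comparison, needs read counts and was not run.

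The 9 genes and all gene lists were chosen with earlier results of these data known. The fit used limma 3.58.1 (R 4.3.3, trend option) on log2(TPM + 1), with group as its single term, and took the 12510 genes averaging 1 TPM or more. Ratios within libraries were compared by exact permutation tests in scipy 1.17.1. Named genes are the 9 genes, Sema6a, genes of the fixed lists and the 5 nearest patterns to Tap1 and to Nlrc5. The gene mt-Co3 and the overlapping genes Cast, Gm15821, Gm19412 and Zbtb22 were named outside that rule, after their values were seen. Nrdc of the peptidase list was matched as Nrd1. Chromosomes, overlapping genes and shared 31-base stretches come from GENCODE M21 (GRCm38) and promoters from RefSeq (GRCm38.p6). In simulated libraries of 12319 genes, 200 were shifted up or down by a log2 of 1, drawn only from genes above a minimum control level. Of these, 90.0% were called, 0 in the wrong direction, and 2.17% of all calls were false. Smaller shifts, such as that of Tap2, were not simulated. Alternatives were another pseudocount, no filter, centring, no trend, other minimum fold changes, the replicate block and leaving out each library. The result of 1 gene of the interferon regulator list is not reported here.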

Additional observations from a re-analysis of the deposited data

How the results depend on the processing

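TPM keeps no depth, so no counting error or detection limit could be given, and Tapbpl rests on the lowest values. Over 11 alternative fits, each of the 9 genes stayed on its side of an adjusted p of 0.05 from limma, and the sign changed only for Canx, which passed in none. The log2 fold change ranged from −3.56 to −3.17 for Tap1 and from −1.94 to −1.75 for Nlrc5. The number of lower DEGs among the 9 genes, 5 in the report, was 4 with each library centred on its median and 4 with a minimum of 1. Tap2 was lost in both. The number of higher DEGs, 1 in the report, was 2 with centring and 2 without a minimum fold change, with Calr added in both, and 0 with a minimum of 1. Of the 60 genes tested in the 8 pathway lists, 25 were DEGs, and 48 without a minimum fold change, against 15.9% and 47.6% of all genes tested. With each library centred on its median, 23 of them were DEGs, where 15.7% of all genes tested were. Leaving out each library in turn kept 5 lower DEGs, 1 higher DEG and 7 genes with an adjusted p under 0.05 in all 6 fits, and moved the log2 differences in ratio between −2.82 and −2.58 for Tap1 to Tap2, −1.09 and −0.95 for Tapbp to Tapbpl, and 0.40 and 0.46 for Calr to Canx. The replicate numbers come from the labels, and nothing states that they pair the libraries. Deviations from the group mean correlated at −0.06 on average between same-numbered libraries (−0.08 to −0.02) and at 0.03 between others. The deviations of a gene sum to 0 within a group, so both averages are tied and do not settle whether libraries were paired. With the replicate number as a block, 5 of the 9 genes were lower DEGs and 1 higher, no call changed, and 1301 lower and 623 higher genes were DEGs in all. The exact permutation p of each ratio within same-numbered pairs was 0.25, the smallest that 3 pairs allow.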
